A study of Mus musculus with 2 samples.

Results

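Foxp3 negative CD4 T helper cells from the tumour region of mouse liver were selected on their raw transcript counts, and 553 of 20142 cell barcodes met the rule. A barcode needed at least 300 detected genes and at most 25% of its unique molecular identifiers (UMIs, 1 per captured transcript molecule) from mitochondrial genes. It also needed 2 or more UMIs of the CD3 genes Cd3d, Cd3e and Cd3g together and at least 1 UMI of Cd4. No UMI was allowed for Foxp3, Cd8a, Cd8b1, Trdc, Cd79a, Csf1r or Siglech, which mark regulatory, CD8, gamma delta, B, monocyte and plasmacytoid dendritic cells, and no more than 2 were allowed over the interferon-induced genes Ifit1, Ifit3, Ifit3b and Rsad2. The levels of these genes were therefore set by the choice of cells and are not results.

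The cells came from C57BL/6 mice with an age of 17 months, which had received the CD-HFD diet over 15 months. Hepatocellular carcinoma (HCC) tissue was cut out and digested with collagenase. There were 2 libraries, 1 labelled control and 1 labelled FABP5 inhibitor, the inhibitor being given from month 13. FABP5 is a fatty acid binding protein. The number of mice in each library, the treatment of the control mice and which fraction of the Annexin V live-cell kit was loaded are not given in the sources used here. With 1 library in each group a difference between them has no replicate check, so no p-value is given, and every 95% interval covers counting error only.

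CD4 helper cells recognise peptides on MHC class II molecules and act through cytokines and surface ligands. Type 1 helper cells use the factor T-bet and make interferon gamma, type 17 cells make interleukin 17, and follicular helper cells use ICOS and interleukin 21 to help B cells. Some CD4 cells take on features more usual in CD8 cells, with granzymes, perforin, the chemokines Ccl3, Ccl4 and Ccl5 and the T-box factor Eomes, and some of these also make interleukin 10.

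Il17a was lower, and the chemokine gene Ccl3 and the granule gene Nkg7 were higher, in the inhibitor library. Their 250 bases before the RefSeq start (GRCm38.p6) are shown because they belong to the type 17 and cytotoxic gene lists described in the results. Capitals mark the matches, on either strand, to 3 motifs, which are the AP-1 site TGANTCA, the T-box half-site GGTGTGA and the NFAT core GGAAAA.
Il17a, chr1:20730655-20730904, plus strand: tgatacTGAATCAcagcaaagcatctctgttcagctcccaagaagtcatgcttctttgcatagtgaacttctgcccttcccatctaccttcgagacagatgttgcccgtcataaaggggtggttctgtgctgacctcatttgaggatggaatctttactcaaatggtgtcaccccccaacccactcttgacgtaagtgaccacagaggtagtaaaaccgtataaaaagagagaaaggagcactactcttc
Ccl3, chr11:83649379-83649628, minus strand: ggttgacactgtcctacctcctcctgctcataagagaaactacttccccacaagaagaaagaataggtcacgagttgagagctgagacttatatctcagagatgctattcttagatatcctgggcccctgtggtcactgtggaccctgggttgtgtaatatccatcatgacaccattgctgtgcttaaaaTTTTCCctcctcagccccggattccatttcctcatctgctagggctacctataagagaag
Nkg7, chr7:43436888-43437137, plus strand: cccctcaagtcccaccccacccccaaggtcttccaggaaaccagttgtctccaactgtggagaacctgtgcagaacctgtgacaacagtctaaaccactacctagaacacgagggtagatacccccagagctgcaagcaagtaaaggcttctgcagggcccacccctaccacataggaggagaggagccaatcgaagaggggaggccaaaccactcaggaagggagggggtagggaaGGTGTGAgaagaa
The Il17a window held 1 AP-1 site, which begins 244 bases before the start. The Ccl3 window held 1 NFAT core at 60 bases, and the Nkg7 window held 1 T-box half-site at 13 bases. Of 32851 mouse promoter windows of the same length, 6.75% held the AP-1 site, 3.33% the T-box half-site and 20.4% the NFAT core. The 3 windows shown are a selection. Among other genes of these lists, Prf1 and Ccr6 had windows without a match, while Gzmb, Tmem176a and Tmem176b had a window with a match. These matches are a description of the letters.

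The control library held 53378693 UMIs in 9493 barcodes and the inhibitor library 68074929 in 10649, of which 6835 and 9470 passed the limits on genes and mitochondrial UMIs. CD4 helper cells were 263 of the passing control barcodes (3.85%, exact binomial 95% interval 3.40 to 4.33) and 290 of the passing inhibitor barcodes (3.06%, 2.72 to 3.43). Among barcodes that met 1 of 4 T cell gates they were 14.3% of 1843 and 11.7% of 2480. Their median depth was 3480 and 3215.5 UMIs. No CD4 helper cell carried 1 of the 29 barcode sequences that occurred in both libraries. RNA of hepatocytes was higher in the control cells: all 19 measured genes of a hepatocyte list were lower in the inhibitor library in CD4 helper cells (summed level 3519 against 162 CPM, which are UMIs per 1000000 UMIs of the gated cells), and in CD8 T barcodes 20 of 20 were lower, where 6.88% of 10440 measured genes were at least 1.5-fold higher and 8.57% lower. All 4 measured erythroid genes were lower too (summed level 3529 against 389 CPM), but 1 control cell held 2406 of the 2748 control UMIs of the globin gene Hbb-bs. The list's median log2 ratio of -3.10 became -0.43 without barcodes rich in markers of other cells. Erythroid genes were among the markers that picked those barcodes, so this alternative is not an independent check. For the hepatocyte gene Alb, detected in 196 control cells, 1 cell held 755 of the 1624 control UMIs. The share of free RNA was estimated from the hepatocyte list in all gated cells, that cell included, and was 20.7% and 7.72%. The part of free RNA in the results was not tested beyond the alternative that subtracts it.

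Most members sat close to the Cd4 limit. In the control library 168 of the cells had exactly 1 Cd4 UMI and 95 had 2 or more, with 7 the highest, and in the inhibitor library these numbers were 182, 108 and 6. Just outside the gate, 1 Foxp3 UMI kept out 16 and 22 barcodes, and UMIs of both Cd4 and Cd8 genes kept out 18 and 14. The 16 and 22 were among 28 and 34 Foxp3 positive CD4 barcodes in all. Inside the gate, 103 control and 126 inhibitor cells had a UMI of Ikzf2 or Il2ra, which belong to the regulatory T cell list. Ikzf2 was not particular to CD4 cells. It had a UMI in 33.8% of control and 42.4% of inhibitor cells of the gate, and in 26.8% and 18.8% of CD8 T barcodes. Whether some members were regulatory cells whose Foxp3 transcript was not captured was not tested. The interferon limit removed more cells from the control library, 62 against 10. Without that limit the groups held 325 and 300 cells. A Cd4 UMI was present in 2.71% of 1513 control and 1.27% of 1969 inhibitor T barcodes with a Cd8 UMI, and in 0.467% and 0.532% of B cell barcodes.

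Of the marker genes that the gate did not use, Icos, Izumo1r and Tnfsf8 were higher than in CD8 T barcodes, while Trac was present in a similar share of both. Trac, the T cell receptor alpha constant gene, had a UMI in 89.7% and 90.7% of the cells and in 91.3% and 87.4% of CD8 T barcodes. In B cell barcodes (median depth 3209 and 2749 UMIs) its share was 1.40% and 0.266%. That gate allowed no UMI of the CD3 genes, so a low share there was largely set by the choice of barcodes. Icos, the inducible costimulator, stood at 254 and 218 CPM (control, then inhibitor, as in later pairs of values unless stated), against 53.7 and 77.4 CPM in CD8 T barcodes. Izumo1r, the folate receptor 4 gene, stood at 152 and 136 CPM, and Tnfsf8, the CD30 ligand, at 218 and 197 CPM. After each cell was thinned to 1500 UMIs, which left out 12 control and 4 inhibitor cells, Icos was detected in 29.1% and 26.9%, Izumo1r in 20.3% and 20.3%, and Tnfsf8 in 19.9% and 19.6% of cells. These markers thus had nearly equal values in the libraries. Of 10 markers of natural killer T and similar cells 3 were measured, with 0 higher and 0 lower between libraries and a summed level of the list of 321 and 372 CPM. Klrk1, the NKG2D receptor gene, had 62 and 68 UMIs, while the defining genes Zbtb16 and Trav11 had 0 and 0 and 0 and 1 UMIs.

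CD4 helper cells differed from CD8 T barcodes in genes of T cell help and of killer cell receptors. Of 9243 genes compared, 166 (1.8%) were at least 2-fold higher and 123 (1.33%) at least 2-fold lower than in CD8 T barcodes in both libraries. Cd40lg, the ligand that activates CD40 on B cells and dendritic cells, led the higher genes, with 100 CPM against 2.59 CPM in the control library and 88.0 against 3.62 CPM in the inhibitor library. The OX40 gene Tnfrsf4 stood at 290 against 16.9 CPM and 268 against 42.8 CPM. Gpm6b ranked between them, and next came Asb2, Smco4, Izumo1r, Capg, Tnfsf8, Tbc1d4 and Podnl1. The lowest relative to CD8 cells were Gzma (3.69 against 414 CPM, and 15.8 against 368 CPM), Klrc2, Klrc1, Klrd1 and Klre1, which encode a granzyme and receptors of the natural killer cell type.

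Against the 28 and 34 Foxp3 positive CD4 barcodes, 115 of 5322 genes (2.16%) were at least 2-fold higher and 53 (0.996%) at least 2-fold lower in both libraries. Cxcr6, a chemokine receptor of liver-resident lymphocytes, stood at 295 against 24.6 CPM and 229.8 against 14.2 CPM. Gzmk, Cd40lg, Cd7, Capn2, Rassf2 and the memory factor gene Tcf7 were also among the highest by the rule. Pde7a, Tbc1d4 and Themis had no UMI in the control Foxp3 positive barcodes. Ikzf2, the Helios gene of regulatory cells, stood at 266 against 1024 CPM and 329 against 1581 CPM, and the glucocorticoid-induced receptor gene Tnfrsf18 at 232 against 557 CPM and 261 against 655 CPM. The small number of Foxp3 positive barcodes limits the precision of these values.

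**Figure D1:**
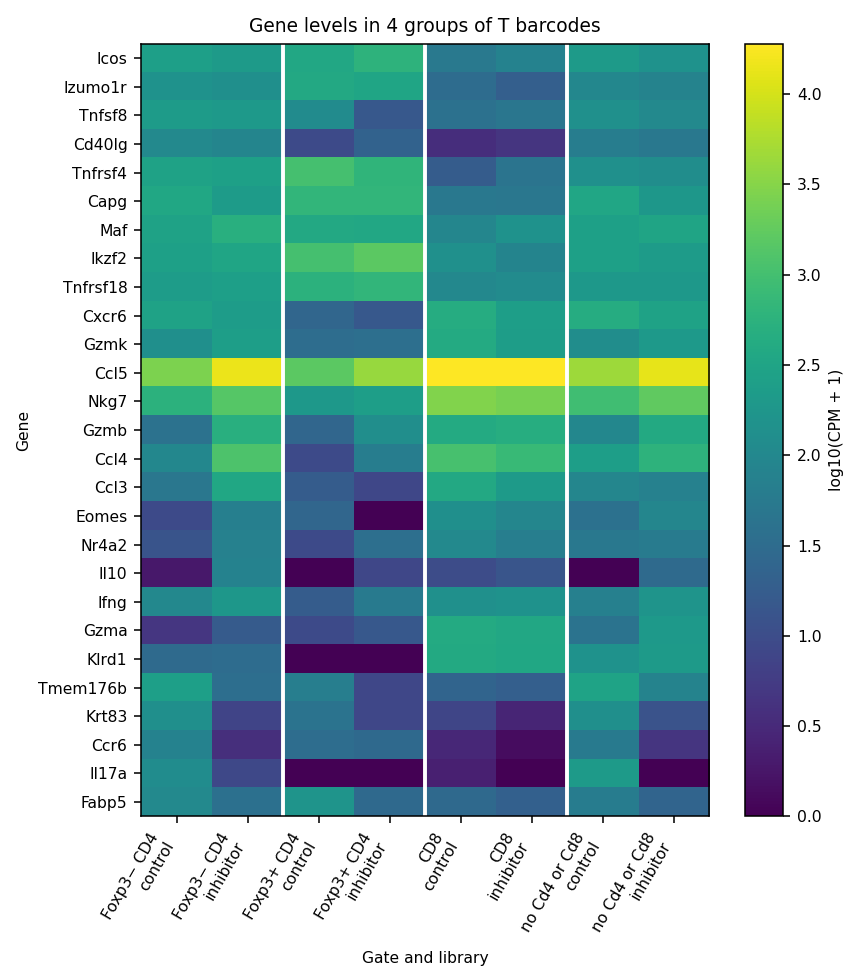
Level of genes described in the results, as log10 of CPM plus 1, in 4 groups of T barcodes (columns, control and inhibitor library side by side). Cd40lg and Tnfsf8 are higher in the CD4 helper columns than in the CD8 columns, Gzma and Klrd1 the reverse, and Il17a, Ccr6 and Krt83 are higher in the control than in the inhibitor column of the CD4 helper cells.

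Between the libraries, cytotoxic and chemokine genes were higher and type 17 genes were lower in the inhibitor library. Of 7426 genes with at least 20 UMIs over both libraries, 854 (11.5%) were at least 1.5-fold higher and 701 (9.44%) at least 1.5-fold lower, and the median log2 ratio over all of them was 0.07. The balance depended on the scaling: with mitochondrial, ribosomal protein, hepatocyte and haemoglobin genes left out (the reduced total), 536 were higher and 1001 lower and the median shifted by -0.13, and with ratios centred on the median 658 were higher and 860 lower. The cytotoxic list (10 higher, 0 lower) and the type 17 list (0 higher, 6 lower) had the same counts under both scalings. The gated cells summed to 1084872 and 1079191 UMIs.

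**Figure D2:**
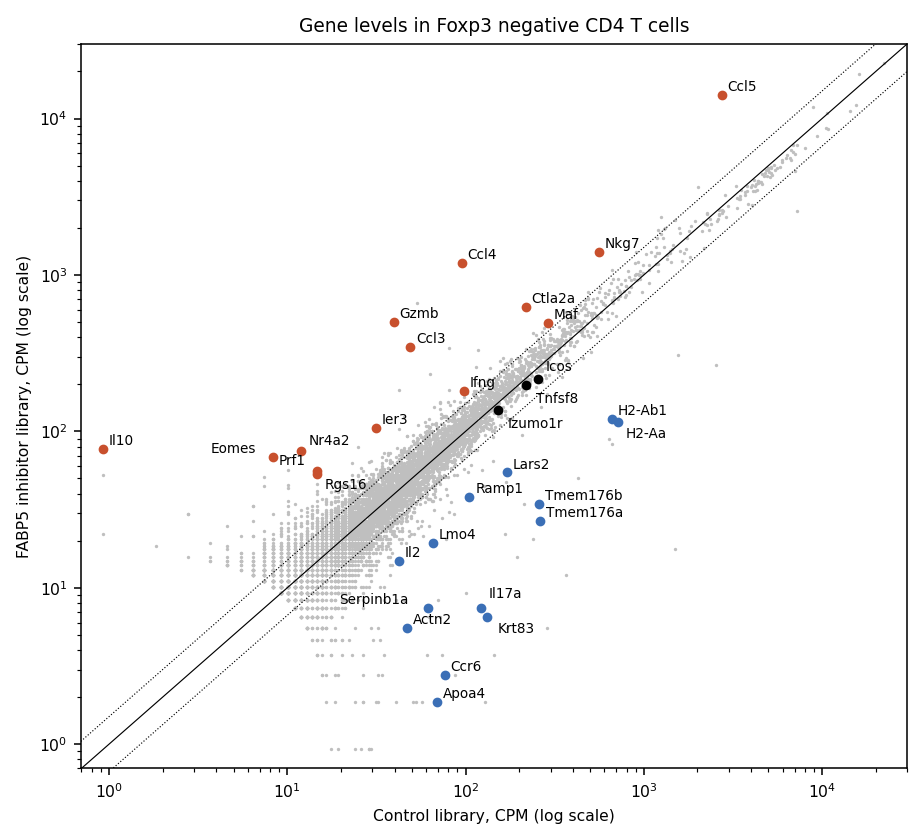
Level of each gene with a UMI in both libraries in CD4 helper cells, control (x axis) against FABP5 inhibitor (y axis), in CPM on log scales, with lines at equality (solid) and at 1.5-fold (dotted). Ccl5, Ccl4 and Gzmb lie above the lines, Il17a, Ccr6 and Krt83 below them, and Icos, Izumo1r and Tnfsf8 between them.

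Cytotoxic effector genes formed the list with the largest share of members that were higher, 10 of 12 measured, with 0 lower and a median log2 ratio of 1.62. Gzmb, the granule protease granzyme B, had 43 UMIs in 16 control cells and 542 UMIs in 81 inhibitor cells, or 39.6 and 502 CPM. Its log2 ratio was 3.66 (95% counting interval 3.21 to 4.15). Ccl4, a chemokine that attracts T cells and monocytes, had 103 UMIs in 20 control cells and 1284 UMIs in 68 inhibitor cells (log2 ratio 3.65, 3.36 to 3.95). Of these UMIs 5 cells held 71.8% in the control library and 5 cells 50.6% in the inhibitor library. Ccl5, a further such chemokine, had 2973 and 15351 UMIs in 124 and 179 cells (log2 ratio 2.38, 2.32 to 2.43). These genes were thus present in more cells and at more UMIs per cell with a UMI, with a median of 12 and 34 for Ccl5 and of 2 and 4 for Gzmb.

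Ccl3 had 53 and 376 UMIs (log2 ratio 2.83, 2.42 to 3.28), but 5 control cells held 96.2% of its control UMIs. In the inhibitor library 5 cells held 65.7% of them. Without cells that had a UMI of Ikzf2 or Il2ra, its log2 ratio was -0.75. The T-box factor gene Eomes, which belongs to the type 1 list and not to the cytotoxic one, had 9 UMIs in 7 control cells and 74 UMIs in 42 inhibitor cells (log2 ratio 3.05, 2.04 to 4.23), and its ratio was 1.39 without the interferon limit of the gate. Perforin, Prf1, had 16 and 60 UMIs (log2 ratio 1.91), and Nkg7 had 610 and 1517 UMIs (log2 ratio 1.32, 1.19 to 1.46). Fasl, the death receptor ligand, stood at 34.1 and 68.6 CPM, Gzmk at 136 and 254 CPM and the cystatin gene Cst7 at 79.3 and 154 CPM. The members that were not 1.5-fold apart were Ctsw (log2 ratio -0.19) and Klrd1 (0.10, and between -0.05 and 3.22 over the alternatives).

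After thinning, Gzmb was detected in 3.59% of control cells (1.65 to 6.70) and 24.8% of inhibitor cells (19.9 to 30.3), against 0 of 622 and 2 of 364 B cell barcodes. Ccl4 was detected in 5.58% and 18.9%, against 3.22% and 3.85% of B cell barcodes, so the control share lay near that background. In CD8 T barcodes the thinned share with Gzmb was 26.0% and 32.0%. The share of CD4 helper cells with Gzmb in the inhibitor library was thus close to that of CD8 cells, and in the control library it was far lower.

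**Figure D3:**
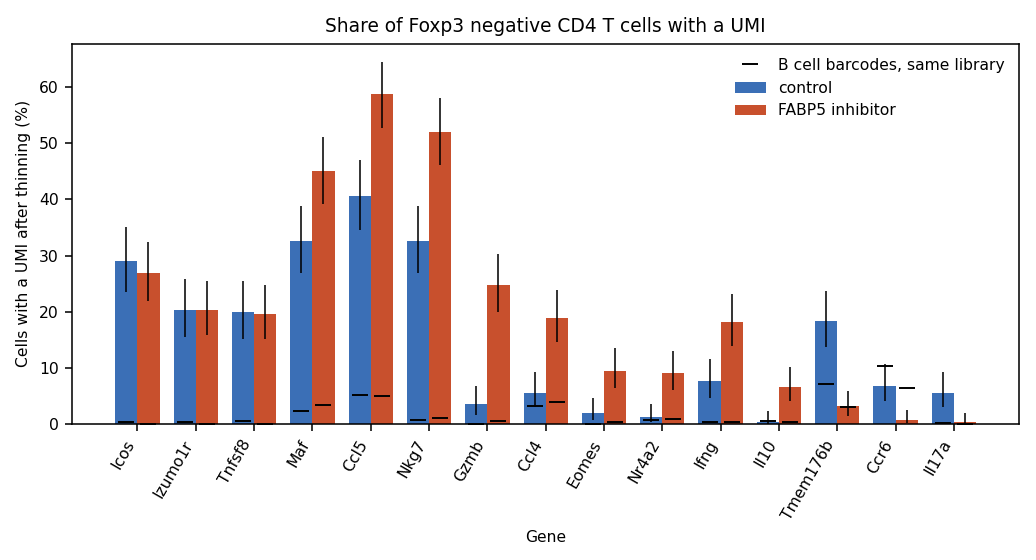
Percent of CD4 helper cells with a UMI of each gene after thinning to 1500 UMIs, by library (bars), with exact binomial 95% intervals for counting error and the percent of B cell barcodes of the same library (dashes). Icos, Izumo1r and Tnfsf8 are level between libraries, Gzmb goes from 3.59% to 24.8%, and Il17a from 5.58% to 0.35%.

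A UMI of Gzmb, Prf1 or Eomes was present in 33 of 263 control cells (12.5%, 8.80 to 17.2) and 98 of 290 inhibitor cells (33.8%, 28.4 to 39.6). This set was drawn up after the values had been seen. In the inhibitor library all 98 of its cells had a Ccl5 UMI, against 81 of the 192 others, and 59 had a Ccl4 UMI, against 9. Markers of help ran the other way: Tnfsf8 was present in 5 of the 98 and 79 of the 192, Cd40lg in 17 and 56, and the interleukin 7 receptor gene Il7r in 26 and 118. Killer receptor genes were found in few cells, with Klrd1 in 7 of the 98 and 10 of the 192, and Cd160 in 8 and 3. At least 2 Cd4 UMIs were present in 38.8% of the set and 36.5% of the others.

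Without the cells of this set, the cytotoxic list's median log2 ratio was 0.20, and Gzmk (-1.01), Cst7 (-0.40) and Ier3 (-0.34) had ratios below 0. Ccl4 was at 2.17, Ccl5 at 0.66, Nkg7 at 0.20 and Ctla2a at 0.21 without them. Without cells with an Ikzf2 or Il2ra UMI, Ccl4 was at 1.40 and Ccl5 at 1.61. With at least 2 Cd4 UMIs required, which left 95 and 108 cells, the ratio of Gzmb was 2.97.

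Interleukin 10, a cytokine that restrains macrophages and T cells, had the highest ratio of the genes in the lists. Il10 had 1 UMI in 1 of 263 control cells and 83 UMIs in 27 of 290 inhibitor cells. Its log2 ratio was 6.38, with a counting interval of 3.86 to 11.7 that reflects the single control UMI. In CD8 T barcodes Il10 stood at 8.75 and 12.2 CPM, and the single Foxp3 positive UMI was in the inhibitor library. Of the 27 cells, 20 had a Gzmb UMI, 15 an Eomes UMI, 17 a Ccl4 UMI, 17 a UMI of the checkpoint receptor gene Pdcd1, 23 an Ikzf2 UMI and 24 a UMI of the transcription factor gene Maf. Among the 263 other inhibitor cells these numbers were 61, 27, 51, 34, 100 and 158. Without cells that had an Ikzf2 or Il2ra UMI the ratio was 2.62.

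Type 17 genes were lower in the inhibitor library in 6 of the 7 measured members of their list, with 0 higher and a median log2 ratio of -3.28. Il17a had 132 UMIs in 16 control cells and 8 UMIs in 1 inhibitor cell (log2 ratio -4.04, -5.28 to -3.02). The chemokine receptor gene Ccr6 had 83 UMIs in 39 control cells and 3 UMIs in 2 inhibitor cells (log2 ratio -4.78, -7.09 to -3.19). The interleukin 17 receptor gene Il17re had 31 and 1 UMIs, and Il17f had 19 and 4. The membrane protein genes Tmem176a and Tmem176b had 284 and 280 control UMIs against 29 and 37. Rora, a receptor gene expressed in many T cells, was the member that was not lower, at 111 and 100.1 CPM.

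Tmem176b was also present in 7.07% and 3.02% of B cell barcodes after thinning, against 18.3% and 3.15% of CD4 helper cells, so its inhibitor share was at that background. Il17a was present in 5.58% (3.08 to 9.18) and 0.35% of CD4 helper cells, against 1 of 622 and 0 of 364 B cell barcodes. T barcodes without a UMI of Cd4, the Cd8 genes or Foxp3 showed the same contrast, with 337 Il17a UMIs in the control and 0 in the inhibitor library.

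A UMI of Il17a, Il17f, Il17re or Ccr6 was present in 49 control cells (18.6%, 14.1 to 23.9) and 4 inhibitor cells (1.38%, 0.377 to 3.49). This set too was drawn up after the values had been seen. In the 49 control cells Trac was detected in 47, against 189 of the 214 others. The gamma chain constant gene Tcrg-C1 was detected in 7 of the 49 and 1 of the 214. Whether some of the 49 were gamma delta cells whose Trdc transcript was not captured was not tested. Krt83, a hair keratin gene, was detected in 33 of the 49 and 15 of the 214, and Tmem176b in 43 and 34. Icos was detected in 38 of the 49 and Maf in 40, against 87 and 92 of the 214. Izumo1r was detected in 4 of the 49 and 77 of the 214. At least 2 Cd4 UMIs were present in 30.6% of the set and 37.4% of the others. The 49 cells were deeper, with a median of 4700 UMIs against 3313.5 in the others. The shares within this set were not thinned, so depth may add to its higher ones. When these cells were left out, the genes that define the set dropped out of the list by construction. The median of the 3 members still measured was -1.70.

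**Figure D4:**
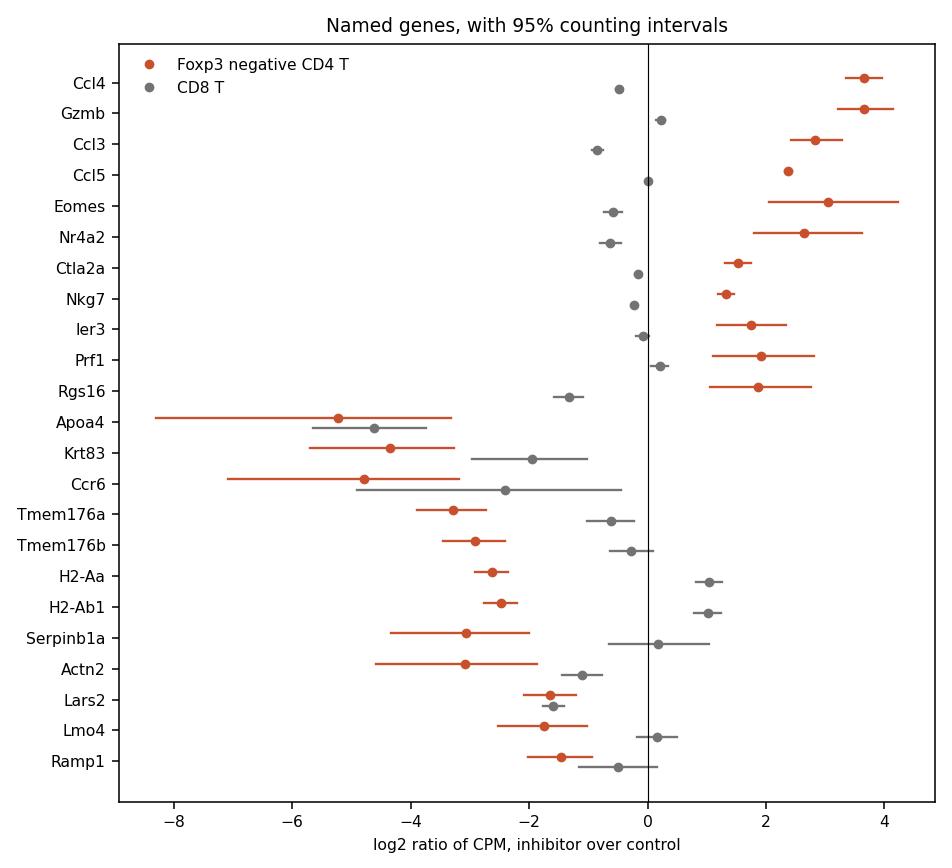
log2 ratio of CPM, inhibitor over control, of genes named by the ranking rule, in CD4 helper cells (coloured) and CD8 T barcodes (grey), with 95% counting intervals. Ccl4, Gzmb and Ccl3 are at 2.83 to 3.66 in CD4 helper cells, where CD8 T barcodes lie at -0.85 to 0.22.

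The other genes that the ranking rule named as higher were the orphan receptor gene Nr4a2 (13 and 81 UMIs, log2 ratio 2.65), Ctla2a (236 and 675 UMIs, 1.52), Ier3 (34 and 113 UMIs, 1.74) and Rgs16 (16 and 58 UMIs, 1.87). Among those named as lower, Krt83 had 144 and 7 UMIs, Serpinb1a had 67 and 8, Actn2 had 51 and 6, Lmo4 had 71 and 21, and Ramp1, a subunit of the calcitonin gene-related peptide receptor, had 114 and 41. The log2 ratio of Ramp1 went from -1.47 to -0.04 without the cells that had a UMI of Il17a, Il17f, Il17re or Ccr6. Lars2 (log2 ratio -1.64) was lower by nearly the same amount in CD8 T barcodes (-1.59).

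Some of the lower genes were carried by few barcodes. The MHC class II genes H2-Aa and H2-Ab1 had 773 and 721 control UMIs against 124 and 129, but 5 cells held 96.8% and 94.9% of the control UMIs. Over 2% of the UMIs came from marker lists of other cells in 11 control and 6 inhibitor barcodes. Without these barcodes the log2 ratio of H2-Aa was -0.79 in place of -2.63, and that of H2-Ab1 was -1.80 in place of -2.48. The apolipoprotein gene Apoa4 had 75 and 2 UMIs, and 1 cell held 37 of the control UMIs. Neutrophil markers were higher in 4 of 5 measured members (summed level 227 and 762 CPM). Without the same barcodes their median log2 ratio was -0.86, but neutrophil markers were among the lists that picked those barcodes. For monocyte markers 2 were higher and 5 lower of 11, with 422 of the 711 inhibitor Lyz2 UMIs in 1 cell. Of 8 B cell markers 2 were measured, with a summed level of the list of 321 and 272 CPM: Ighm was present in 98 and 64 cells and Igkc in 77 and 75, while Pax5 was at 0 in both libraries.

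Among the type 1 genes 7 of 18 measured were higher and 2 lower, with a median log2 ratio of 0.38. Ifng, the interferon gamma gene, had 106 and 196 UMIs, in 39 and 92 cells (log2 ratio 0.89, 0.55 to 1.25). Its thinned share was 7.57% and 18.2%. Of the higher members, Ccl5, Nkg7 and Fasl are also in the cytotoxic list. The defining factor gene Tbx21 stood at 23.0 and 26.9 CPM and the receptor gene Cxcr3 at 239.7 and 322 CPM, both under 1.5-fold. The growth factor gene Il2 was lower, with 46 and 16 UMIs (log2 ratio -1.52, -2.44 to -0.67).

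Of the follicular helper list 5 of 15 measured genes were higher and 0 lower, with a median of 0.21. With the reduced total 3 were higher and 1 lower, and centred on the median of all genes 4 and 1. Maf stood at 289 and 495 CPM (log2 ratio 0.77), Batf, an AP-1 factor gene needed for several helper programs, at 71.9 and 152 CPM (1.08), and Sh2d1a, the SAP adaptor gene, at 177 and 283 CPM (0.68). Bcl6, the lineage factor gene, had 8 and 10 UMIs and Cxcr5 had 13 and 16.

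Checkpoint and exhaustion genes were higher in 8 of 13 measured members and lower in 0, with a median of 0.81, and with the reduced total 7 were higher and 1 lower. Havcr2, the TIM-3 gene, had 2 and 20 UMIs (log2 ratio 3.33, 1.29 to 6.47), Entpd1, the CD39 gene, 13 and 34 and Lag3 20 and 39. Pdcd1, at 60.8 and 70.4 CPM, and Ctla4, at 124 and 181 CPM, were under 1.5-fold. In CD8 T barcodes 8 of 15 measured members of the list were lower and 1 was higher, with a median of -0.63. Without the cells with a Gzmb, Prf1 or Eomes UMI, the ratios of Entpd1 and Lag3 were -0.31 and -1.27.

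Regulatory T cell genes divided, with 3 of 13 measured higher and 5 lower. Besides Il10, the higher members were Areg, the amphiregulin gene (3 and 32 UMIs, log2 ratio 3.42, 1.75 to 5.77), and Klrg1 (1 and 24 UMIs). For Areg 1 cell held 15 of the 32 inhibitor UMIs, and its ratio was 0.51 with at least 2 Cd4 UMIs required. The lower ones included Il2ra, the interleukin 2 receptor alpha gene (25 and 4 UMIs), Itgae (17 and 3) and Nt5e, the CD73 gene (90 and 38). Capg was also lower, with a ratio of -0.63. It became 0.03 without the cells that had a UMI of Il17a, Il17f, Il17re or Ccr6. Ikzf2 was under 1.5-fold, at 266 and 329 CPM.

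Lists of T cell upkeep differed little. Of 20 measured genes of T cell receptor signalling 1 was higher and 0 lower, with a median of 0.20. Of 15 naive and central memory genes 2 were higher and 2 lower: Ccr7, the lymph node homing receptor gene, stood at 78.4 and 38.9 CPM and Igfbp4 had 35 and 6 UMIs, while Klf2, a regulator of egress from tissue, stood at 905 and 1404 CPM. The costimulation list had 1 higher and 3 lower of 16, residence genes 2 and 2 of 12, and chemokine receptors 1 and 3 of 11. Interferon gamma response genes were higher in 2 and lower in 0 of 18. The type I interferon list, whose level the gate limits, had 1 higher and 4 lower of 13.

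**Figure D5:**
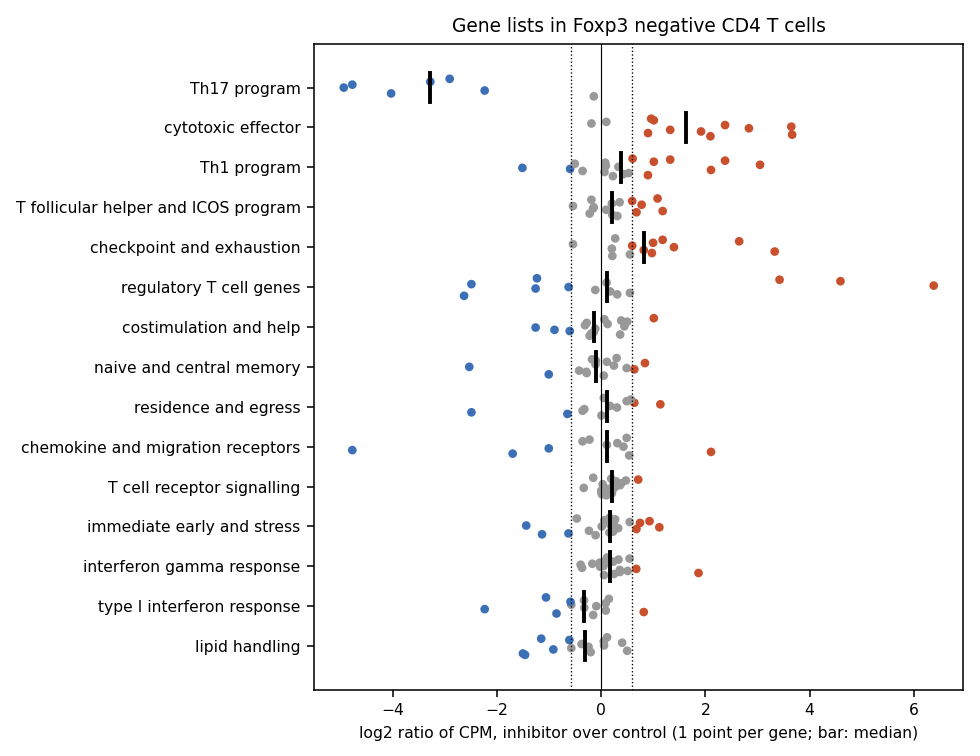
log2 ratio, inhibitor over control, of each measured gene (points) of 15 lists in CD4 helper cells, with the list median (bar), lines at 1.5-fold (dotted) and at 0 (solid). The type 17 median lies at -3.28 and the cytotoxic median at 1.62, while T cell receptor signalling lies at 0.20.

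Fabp5, the gene of the inhibitor's labelled target, had 111 control UMIs in 36 cells and 40 inhibitor UMIs in 26 cells, or 102 and 37.1 CPM (log2 ratio -1.46, -2.02 to -0.93). A single control cell held 40 of the 111 UMIs, and without the barcodes rich in markers of other cells the ratio was -0.67. After thinning 5.98% and 2.45% of the cells had a Fabp5 UMI, against 2.25% and 1.37% of B cell barcodes. In monocyte or macrophage barcodes Fabp5 stood at 442 and 114 CPM. Of 14 measured genes of lipid handling 0 were higher and 5 lower, among them Abcg1, a cholesterol exporter gene (47 and 21 UMIs), and Acadm, a gene of fatty acid oxidation (40 and 21 UMIs). Fabp1 was also lower by its sum, but 122 of its 137 control UMIs were in 1 cell, and its ratio changed sign under 6 alternatives. Cholesterol synthesis genes were higher in 2 and lower in 2 of 13, glycolysis genes were higher in 1 and lower in 0 of 16, and cell cycle genes were higher in 0 and lower in 3 of 16.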

How the data were processed

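Both libraries were analysed from the deposited raw counts of UMIs per gene and barcode for 31053 features, which the authors had not normalized. Per the file headers, Cell Ranger 5.0.1 made the matrices. Cell Ranger, R 3.0 and Seurat 3 and the build mm9 are named, without roles, per the submitters' processing notes. The members and gene lists were chosen with earlier results of these data known.

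UMIs were summed over the cells of a gate in each library and expressed as CPM of all UMIs of those cells, with exact Poisson, binomial (Clopper-Pearson) and conditional binomial 95% intervals for CPM, shares and ratios (Python 3.11.15, numpy 2.4.6, scipy 1.17.1). A count of 0 was set to 3 UMIs for ratios, which are then bounds. Droplet counts carry no replicate, so no test was run. Named genes were the 12 highest and 12 lowest by the interval bound nearest to equality, with at least 50 UMIs and a UMI in at least 10% of cells of the higher library and at least 10% of the CPM of the other cell classes, and, between gates, the 10 highest and 5 lowest by the smaller fold of the libraries. Members of 31 lists, Fabp5 and the markers given with the rule were also named, and other choices are stated beside their values. Some items are not reported here. Doublets were not removed in the main values; scoring against simulated doublets was an alternative. RefSeq promoter windows were matched by symbol, for 18 of the 24 named genes. The strand of the 3 windows shown was checked against GENCODE transcripts. The same check found no shared stretch for Gzmb in either direction, and the other windows were not checked. The ratio script was tested on simulated data.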

Additional observations from a re-analysis of the deposited data

Results flagged for a closer look

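For 9 of the 24 genes named by the ranking rule, the log2 ratio in CD4 helper cells had the opposite sign to that in CD8 T barcodes. The ratios are of inhibitor over control in the same libraries, and neither counting interval reached 0. The genes were named for their ratios in CD4 helper cells. The share of all genes with opposite signs was not counted, so the 9 have no background to be read against. The difference between the cell types was not tested, since each group has 1 library. Ccl4 was at 3.65 in CD4 helper cells and -0.48 in CD8 T barcodes (95% counting interval -0.53 to -0.43). Ccl3 was at 2.83 and -0.85, Eomes at 3.05 and -0.59, and Nr4a2 at 2.65 and -0.63. Rgs16, a regulator of G protein signalling, was at 1.87 and -1.33. For Ctla2a (1.52 and -0.16) and Nkg7 (1.32 and -0.23) the CD8 ratio was close to 0. The MHC class II genes H2-Aa (-2.63 and 1.03) and H2-Ab1 (-2.48 and 1.02) ran the other way, and their CD4 helper values rest on few barcodes.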

How the results depend on the processing

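No paired analysis was possible because each group has 1 library. The balance of all genes depended on the total used for scaling, as given beside the counts in the results, with 536 genes higher and 1001 lower when mitochondrial, ribosomal, hepatocyte and haemoglobin genes were left out of the total. Without a filter on low counts 1854 genes were higher and 1865 lower, with at least 50 UMIs 389 and 225, and after thinning 645 and 438. With at least 2 Cd4 UMIs, 57 genes were 2-fold higher and 24 lower than in Foxp3 positive barcodes. Without the interferon limit the log2 ratio of the gate's share of barcodes was -0.59. Without cells with a UMI of Il17a, Il17f, Il17re or Ccr6, Capg was at 0.03 and the type 17 median was -1.70. That median rests on 3 members, because the genes that define the set drop out by construction. The cytotoxic median was 0.78 without cells with an Ikzf2 or Il2ra UMI, where Ccl3 was at -0.75, and 2.22 with free RNA subtracted. Without cells with a Gzmb, Prf1 or Eomes UMI it was 0.20, with Gzma at -1.12, Gzmk at -1.01, Lag3 at -1.27, Cst7 at -0.40, Ier3 at -0.34 and Entpd1 at -0.31; Gzmb and Prf1 belong to the list and drop out by construction. Fabp1 was at 1.58 without high-scoring doublets, 1.51 with at least 2 Cd4 UMIs, 1.69 with at most 10% mitochondrial UMIs, 1.66 without Ikzf2 or Il2ra cells, 1.60 without barcodes rich in markers of other cells and 0.40 after thinning. The neutrophil median was -0.86 without those barcodes, which were picked in part by the neutrophil list itself. The settings that leave out cells by type 17, cytotoxic or other-cell genes were chosen after seeing the data, and the causes of these changes were not tested. Of 479 alternative values of list medians, 443 stayed between the median of the members' lower interval bounds and the median of their upper bounds. This range is not a counting interval of the list median itself. There were 55 changes of sign, of which 1, the neutrophil median, was of a list with a reported median past 1.5-fold. Of 1187 alternative values for 80 genes named in the text, 1007 stayed within the gene's counting interval. There were 54 changes of sign among them all, 14 in genes past 1.5-fold as reported. Depth limits genes with few UMIs, such as Bcl6.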

Other observations

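Receptor variable genes were detected in few cells. A Trbv UMI was present in 28 control and 26 inhibitor cells, most often Trbv2 (6 and 9 cells) and Trbv12-2 (6 and 7 cells). Among alpha chain genes, which were looked at after their values had been seen, Trav3-3 was detected in 1 of 263 control cells and 9 of 290 inhibitor cells (3.10%, exact binomial 95% interval 1.43 to 5.81), against 0.444% and 0.477% of CD8 T barcodes. Of the 9 inhibitor CD4 helper cells with Trav3-3, 6 had a Gzmb UMI, 6 a Ccl4 UMI, 8 an Ikzf2 UMI and 3 an Il10 UMI. The beta chain constant gene Trbc1 was detected in 38 of the 98 inhibitor cells with a Gzmb, Prf1 or Eomes UMI and 120 of the 192 others, and in 7 of the 27 cells with Il10. In the control library these numbers were 23 of 33 and 137 of 230. Trbc1 and Trbc2 are near-identical, so their reads may be shared between them. Whether cells share a receptor was not tested, because the libraries capture the 3′ end.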
